A study of Mus musculus with 9 samples.

Results

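Inhaled 1% linalyl acetate was set against inhaled vehicle in the mouse olfactory bulb, the forebrain relay that receives the axons of the nasal sensory neurons. The comparison took the 3 vehicle arrays and the 3 arrays of 1% linalyl acetate, 6 of the 9 arrays of the study. It covered the 21367 probe sets that carry 1 gene symbol, of 22206 in all. The other 3 arrays were of 10% linalyl acetate. They shared in the estimate of spread behind the standard errors and p-values, and their values are given beside some genes. Gene expression was measured on Clariom S arrays, and values below are log2 signals as deposited unless another scale is named.

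All animals were male ICR mice, an outbred stock, 8 weeks old and housed singly. The vehicle group breathed 1% Tween 80, a detergent, and the exposed group 1% linalyl acetate, by whole-body inhalation from a Nano Nebula diffuser over 7 days. The titles do not say whether Tween 80 was also in the linalyl acetate aerosol, so the ester and a difference in Tween 80 cannot be told apart. A tail suspension test, a test of immobility, followed 30 min of inhalation, and every group went through it. Groups were taken from the titles. The deposited description of vehicle replicate 3 names an injection of LPS (lipopolysaccharide), those of vehicle replicates 1 and 2 name saline, and those of 1% replicates 1 and 2 name oleacein and LPS. These treatments appear in no title, source name or protocol. The labels do not say that an array stands for 1 animal, so errors measure the spread between these samples.

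Linalyl acetate is a volatile monoterpene ester of lavender oil and is taken up through the nose and airways. In the bulb, sensory axons contact mitral and tufted cells inside glomeruli, and a large population of GABA interneurons, many of them born in adult life, shapes the output. Bulb cells also hold a circadian clock, in which CLOCK and BMAL1 (Arntl) drive their own repressors, and an activity programme in which firing neurons quickly transcribe early genes such as Fos.

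The arrays were alike in scale, with medians of 6.92 to 6.98 and with Pearson's r of 0.985 to 0.992 across genes, which are not independent replicates. The negative control probe sets had medians of 6.87 to 7.12, so genes near or below these levels were dim. Bulb markers were bright in all 6 arrays: Th, the dopamine synthesis enzyme of periglomerular cells, read 15.69, 15.73 and 14.65 in vehicle arrays and 15.57, 14.71 and 15.55 in 1% arrays. Eomes, a transcription factor of mitral and tufted cells, read 13.13, 13.47 and 12.20 against 13.02, 12.37 and 13.05. Tbr1, a transcription factor of cortical projection neurons that mitral and tufted cells also use, separated the arrays within both groups. It read 9.54, 9.70 and 12.11 in vehicle replicates 1, 2 and 3 and 10.52, 12.32 and 10.99 in 1% replicates 1, 2 and 3. Vehicle replicate 3 and 1% replicate 2 were thus the arrays of highest Tbr1, and the groups overlapped.

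No gene differed between 1% linalyl acetate and vehicle after adjustment. Of 21367 genes, 0 (0%) had an adjusted p under 0.05 in limma with Benjamini-Hochberg adjustment, and the lowest adjusted p was 0.998. An unadjusted p under 0.05 was found for 375 genes with a higher mean in the 1% arrays (1.76%) and 356 with a lower mean (1.67%), 731 in all (3.42%). The authors' deposited table likewise had 0 adjusted p-values under 0.05 among these genes, with a lowest of 0.9996, and 728 unadjusted ones under 0.05. No overlap between the 3 vehicle and the 3 exposed arrays was seen for 978 genes higher at 1% (4.58%) and 993 lower (4.65%), 1971 in all (9.22%). Genes are therefore described below by their values and unadjusted p-values. With 3 arrays a group, an exact permutation test of 1 gene cannot give a p under 0.1.

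The study's criterion, an unadjusted p under 0.05 with a fold over 2, held for 12 genes higher at 1% (0.0562%) and 23 lower (0.108%), 35 in all (0.164%). In the authors' deposited table it held for 48 of the genes compared, with folds from group averages that differ from the means of arrays. Of the 23 lower genes, 14 were early activity genes and 9 were not. Of the 9, the groups did not overlap in 3: Glra4, Pcdhb10 and Mrs2. Of the 12 higher genes, the groups did not overlap in 10. Among all genes with an unadjusted p under 0.05, they did not overlap in 285 of 375 higher and 253 of 356 lower genes. The count of 10 thus largely follows from the choice by p. Each of the 6 arrays was also left out in turn. An unadjusted p under 0.05 was kept in every such fit by 67 higher genes (0.314%) and 56 lower genes (0.262%), 123 in all (0.576%). These genes were chosen by p in the same arrays, so the count is a description and adds no independent support. Early activity genes made up 4 of the 56, and 52 were other genes.

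Outside the early genes, the smallest unadjusted p belonged to Hist1h4c (probe set TC1300001640.mm.2), one of the replication-dependent histone H4 genes. It read 10.58, 10.26 and 10.21 in vehicle arrays and 11.64, 13.06 and 11.94 in 1% arrays. Every exposed array lay above every vehicle array, with 1% replicate 2 the highest. The means were 10.35 ± 0.20 and 12.21 ± 0.75 (SD, n = 3), a log2 difference of 1.86 ± 0.33 (SE) or 3.64-fold. The limma unadjusted p was 0.000138. Without the highest-Tbr1 array of each group the difference was 1.37.

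The other named genes higher at 1% had varied functions. AI506816, which has no described function here, read 8.64, 7.30 and 8.36 in vehicle arrays and 9.81, 9.47 and 9.53 in 1% arrays, a log2 difference of 1.50 ± 0.31 (SE). Sla, an adaptor that dampens antigen receptor signalling, read 6.01, 5.98 and 6.56 against 7.55, 7.50 and 6.98, a difference of 1.16 ± 0.27. The vehicle arrays of Sla were below the negative control medians, so its fold of 2.23 is uncertain. Trappc11, a subunit of the TRAPP complex that tethers transport vesicles, read 10.40, 10.55 and 9.98 against 11.47, 11.04 and 11.29. Its log2 difference was 0.96 ± 0.20, with an unadjusted p of 0.000623. Deaf1, a transcription factor, had the tightest exposed group of these (9.17, 9.15 and 9.02) above vehicle arrays of 8.41, 8.60 and 8.15.

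Oxtr, the oxytocin receptor, read 7.54, 7.65 and 7.92 in vehicle arrays and 8.43, 8.35 and 8.39 in 1% arrays. The exposed arrays lay close together and above the vehicle arrays. The difference was 0.69 ± 0.18, 1.61-fold. Hfe, an MHC-like protein that tunes iron uptake, had a similar shape, with 6.26, 6.36 and 6.36 against 7.01, 7.00 and 6.96, a difference of 0.66 ± 0.18 near the negative control level. Paqr8, a membrane progesterone receptor, was bright and more scattered. It read 12.35, 12.73 and 12.93 against 14.17, 13.90 and 13.01, so 1% replicate 3 lay only 0.08 above the highest vehicle array. Stk19 differed by 1.10 ± 0.32 (2.14-fold), Nfic, a nuclear factor I family transcription factor, by 0.61 ± 0.17 and Hs3st2, a heparan sulfate sulfotransferase of neurons, by 0.63 ± 0.17.

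Among lower genes, Pcdhb10 (probe set TC1800000365.mm.2), a clustered protocadherin of the neuronal surface, had the smallest p of the named genes. It read 8.48, 8.28 and 7.87 in vehicle arrays and 7.59, 6.99 and 6.94 in 1% arrays, without overlap. The means were 8.21 ± 0.31 and 7.17 ± 0.36 (SD, n = 3), a log2 difference of −1.04 ± 0.23 (SE) or 2.05-fold. Mrs2, the magnesium channel of the inner mitochondrial membrane, read 10.35, 10.73 and 10.23 against 9.94, 9.10 and 9.22, a difference of −1.02 ± 0.23. Mrps10, a protein of the small mitochondrial ribosomal subunit, read 9.07, 9.34 and 9.12 against 8.67, 8.58 and 8.38. Its difference was −0.63 ± 0.16, with an unadjusted p of 0.00239.

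Xiap, which binds and inhibits caspases, was bright and tight, at 12.58, 12.44 and 12.43 in vehicle arrays against 11.99, 11.71 and 11.90 in 1% arrays. Its log2 difference was −0.62 ± 0.16. Aven, another inhibitor of caspase activation, read 7.13, 7.66 and 7.38 against 6.69, 6.33 and 6.74, with the exposed arrays below the negative control medians. No list of apoptosis genes was counted. Tlr3, the endosomal receptor for double-stranded RNA, read 9.94, 10.07 and 9.72 against 8.93, 9.05 and 9.36, a difference of −0.80 ± 0.24. Ifi35, an interferon-induced protein, differed by −0.87 ± 0.24. Elovl7, a fatty acid elongase, differed by −0.64 ± 0.17 and Kcnmb2, an auxiliary subunit of BK potassium channels, by −0.75 ± 0.22. The rest of the lower genes that the rule named were Sly, AW551984, Uspl1 and Tmem216, with differences of −0.82, −0.64, −0.64 and −0.61.

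**Figure D1:**
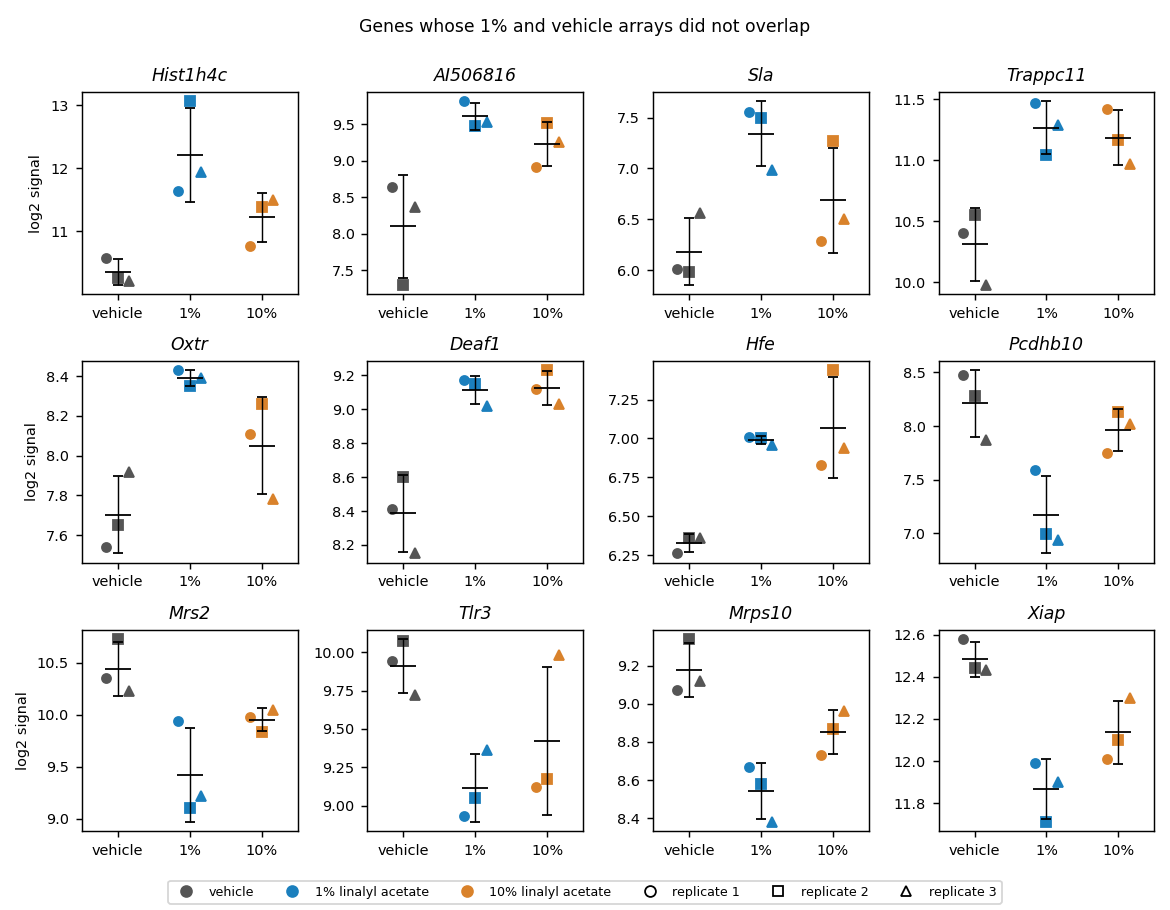
Log2 signal of 12 named genes in each of the 9 arrays; symbols mark the replicate, horizontal bars the group mean and whiskers the SD of 3 arrays. In every panel the 1% arrays lie on 1 side of all vehicle arrays, with the narrowest exposed groups for Oxtr and Hfe and the widest for Hist1h4c. The 10% arrays are shown for reference.

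Genes of the circadian clock and its direct outputs held more small p-values than the array as a whole. Of 25 measured, 7 had an unadjusted p under 0.05 and a higher mean at 1% (28% against 1.76% of all genes), and 1, Nfil3, a lower mean (4% against 1.67%). The list median was only 0.03, with 15 genes higher and 10 lower, so the list did not move as a whole. The higher genes were Ciart, Nr1d1, Per3, Per2, Nr1d2, Bhlhe41 and Dbp. All of them encode repressors of the clock or, in Dbp, an output factor, and Nfil3 encodes a repressor that competes with DBP for its sites. These genes had already stood out in earlier results of these data, so the count is a description.

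Ciart (probe set TC0300002489.mm.2) encodes a repressor of CLOCK and BMAL1. It read 7.33, 7.47 and 7.83 in vehicle arrays and 8.36, 8.66 and 8.16 in 1% arrays, without overlap. The log2 difference was 0.85 ± 0.22 (SE), 1.80-fold, with an unadjusted p of 0.00262. Nr1d1 encodes REV-ERBα, the haem-binding repressor of Arntl, and read 9.93, 10.44 and 10.36 against 10.78, 11.18 and 10.91. It differed by 0.71 ± 0.19. Its paralogue Nr1d2 read 11.68, 12.23 and 12.27 against 12.44, 12.64 and 12.77, again without overlap. Per3, a period protein that binds cryptochromes, read 10.81, 10.59 and 10.77 against 11.01, 11.57 and 11.20, a difference of 0.54 ± 0.18.

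In Per2, Dbp and Nfil3 the groups overlapped, and in Bhlhe41 they did not. Per2 read 7.89, 8.31 and 8.80 in vehicle arrays and 8.89, 9.54 and 8.76 in 1% arrays, so vehicle replicate 3 overlapped the exposed group. Dbp, a PAR bZIP factor whose transcript cycles widely, read 14.42, 15.04 and 16.13 against 15.84, 16.19 and 15.92, and again vehicle replicate 3 lay inside the exposed range. Bhlhe41, a repressor of CLOCK and BMAL1 targets, read 11.14, 11.00 and 10.83 against 11.51, 11.61 and 11.42. Nfil3 read 7.79, 7.88 and 6.92 against 6.44, 6.85 and 6.96, with vehicle replicate 3 between the exposed arrays.

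Without vehicle replicate 3, the differences were larger for Dbp (1.25 against 0.79), Per2 (0.96 against 0.73), Ciart (0.99 against 0.85) and Nfil3 (−1.08 against −0.78). Without vehicle replicate 1 the Dbp difference was 0.40, and Per2 had 0.51 there and 0.49 without 1% replicate 2, all with an unadjusted p above 0.05. The Nr1d2 difference of 0.56 was 0.37 without vehicle replicate 1 and 0.48 without 1% replicate 3. Its unadjusted limma p-values there were 0.0966 and 0.0682. Bhlhe41 was smaller without vehicle replicate 3, at 0.44 with an unadjusted p of 0.0993. Without the highest-Tbr1 array of each group, Per3 had an unadjusted p of 0.0811 and Bhlhe41 one of 0.109. Ciart, Nr1d1 and Nfil3 kept an unadjusted p under 0.05 whichever of the 6 arrays was left out. Arntl, whose protein is the activator in the loop, differed by −0.49 with an unadjusted limma p of 0.122, and the 10 genes with lower means also included Per1 at −0.27. The labels state no hour of tissue collection, and its part in these values was not tested.

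**Figure D2:**
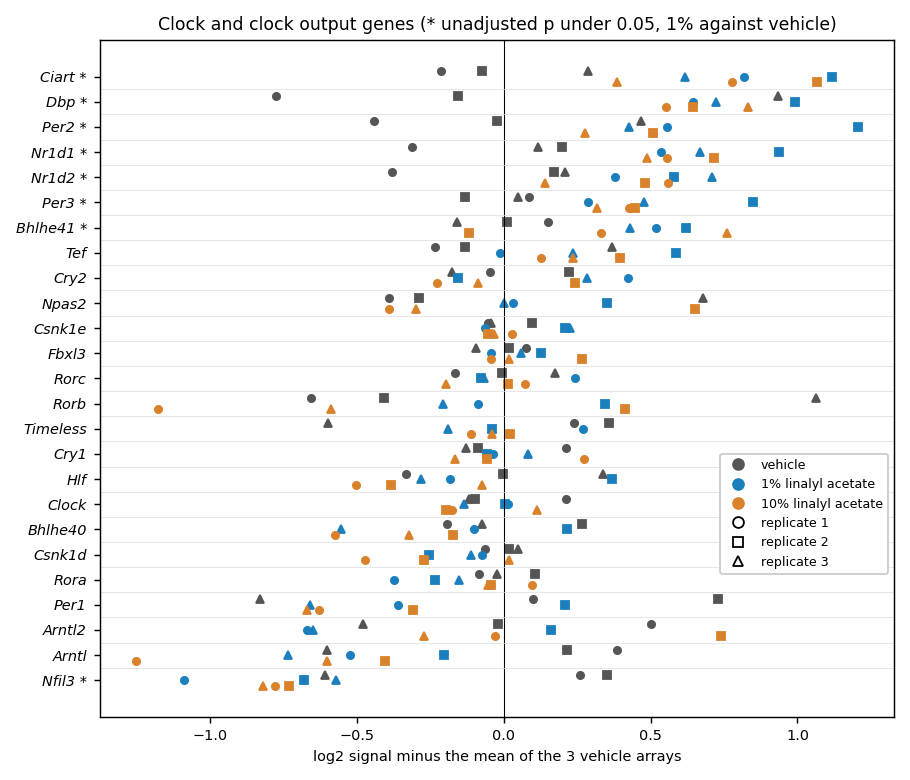
Each of the 25 clock genes in the 9 arrays, as log2 signal minus the mean of the 3 vehicle arrays, ordered by the difference between 1% and vehicle. From Ciart to Bhlhe41 the 1% arrays lie to the right of 0, while vehicle replicate 3 (grey triangles) lies among them for Dbp and Per2.

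The promoters of Ciart and Per3 are shown because they carry repeated copies of the elements through which the clock acts, the E-box bound by CLOCK and BMAL1 and the D-box bound by DBP and NFIL3. The sequences are RefSeq promoters of GRCm38.p6, 250 bases before the start of the gene, read 5′ to 3′ on the minus strand. Capitals mark the E-box CACGTG in Ciart (chr3:95882229-95882478) and the D-box TTATGTAA in Per3 (chr4:151044666-151044915).
Ciart: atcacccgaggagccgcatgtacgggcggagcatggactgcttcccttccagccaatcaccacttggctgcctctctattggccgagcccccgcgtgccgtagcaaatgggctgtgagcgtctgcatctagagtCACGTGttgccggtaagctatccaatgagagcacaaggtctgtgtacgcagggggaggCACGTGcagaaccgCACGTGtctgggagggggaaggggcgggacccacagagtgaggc
Per3: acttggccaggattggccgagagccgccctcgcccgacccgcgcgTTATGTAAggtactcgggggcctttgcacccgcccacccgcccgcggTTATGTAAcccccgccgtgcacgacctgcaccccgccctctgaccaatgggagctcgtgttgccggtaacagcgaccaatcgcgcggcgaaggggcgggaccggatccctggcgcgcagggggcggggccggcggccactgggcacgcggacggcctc

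The E-boxes of Ciart began 116, 58 and 44 bases before the start, and the D-boxes of Per3 205 and 158 bases before it. Both strands were searched, for CACGTG and for TTATGTAA or TTACGTAA. Across all 32851 promoter windows of this length, 6.02% held the E-box and 0.931% the D-box. A promoter was matched for 20 of the 25 clock genes, of which 5 held an E-box and 2 a D-box. A gene counted when any of its windows matched, and some genes, such as Clock and Csnk1e, had several windows. These counts of genes and the shares of all windows are therefore unlike measures, and no excess is read from them. AGGTCA, the core of the elements bound by REV-ERB and ROR proteins, was in 4 of the 20 and in 14% of all windows. TGACGTCA, the cAMP response element, was in 1 of the 20 and in 1.55% of all windows. Nr1d1 and Dbp, with differences of 0.71 and 0.79, had none of these letters in the windows searched. These matches are descriptions of the sequence and not of binding.

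Histone genes held small p-values in both directions. Of 72 measured, 6 had an unadjusted p under 0.05 with a higher mean at 1% (8.33%) and 5 with a lower mean (6.94%), against 1.76% and 1.67% of all genes, and the list median was 0.05. Signs differed between classes, and the difference between classes was not tested. Of 12 H3 genes, 11 had higher means at 1%, with a median log2 difference of 0.23, 4 of them with an unadjusted p under 0.05. Of 16 H2B genes, 13 were lower, with a median of −0.16, and 4 of these had an unadjusted p under 0.05. H4 genes were 7 higher and 4 lower, and H2A genes 17 higher and 8 lower, with medians of 0.06 and 0.04. H1 genes were 5 higher and 2 lower, with a median of 0.1.

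Within H3, Hist1h3h read 9.79, 9.53 and 9.64 in vehicle arrays and 10.11, 10.91 and 10.06 in 1% arrays, a log2 difference of 0.71 ± 0.24. Hist1h3e read 10.08, 10.50 and 10.27 against 10.67, 10.83 and 10.80, a difference of 0.48 ± 0.17. In both, the exposed arrays lay above all vehicle arrays. Within H2B, Hist1h2bc was bright, at 12.81, 12.36 and 12.62 against 11.98, 11.51 and 11.61, a difference of −0.90 ± 0.26. Hist1h2bg read 7.24, 6.73 and 6.37 against 5.80, 5.78 and 6.21 and was dim in most arrays. Hist1h2aa, of class H2A, was tight within both groups, at 8.23, 8.22 and 8.19 against 7.76, 7.80 and 7.75.

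Array 1% replicate 2, with high Tbr1, was the highest exposed array for Hist1h4c, Hist1h3h and Hist1h3e. Without the highest-Tbr1 array of each group the H3 median was 0.15 and the H2B median −0.28, and Hist1h3h and Hist1h3e had unadjusted p-values of 0.0729 and 0.0808. The H1, H2A and H4 medians were 0.32, 0.09 and 0.2 there. Histone genes of 1 class share most of their coding sequence, so probe sets may read several copies and class members are not independent. Hist2h3c1 and Hist2h3c2 had the same difference of 0.09 and count as 1 measurement. Most replication-dependent histone transcripts lack a poly(A) tail.

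**Figure D3:**
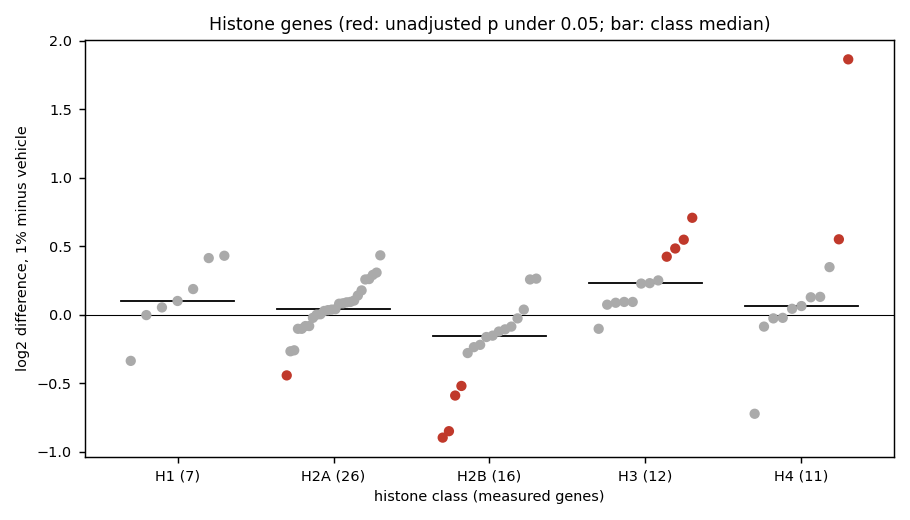
Log2 difference, 1% minus vehicle, of 72 histone genes by class; each point is a gene, red points have an unadjusted p under 0.05 and bars are class medians. The H3 points lie above 0 but for 1, most H2B points lie below 0, and the point at 1.86 in H4 is Hist1h4c.

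Clustered protocadherins, the cell surface proteins whose combinations label single neurons, had lower means in 18 of the 20 measured members, all from the beta cluster. The median log2 difference was −0.20. An unadjusted p under 0.05 was reached by 3 (15% against 1.67% of all genes): Pcdhb10, Pcdhb3 and Pcdhb4. Pcdhb3 read 7.56, 7.54 and 7.16 in vehicle arrays and 7.16, 6.71 and 6.52 in 1% arrays, touching at 7.16. Pcdhb4 read 8.83, 8.91 and 8.83 against 8.54, 8.20 and 8.61, a difference of −0.41 ± 0.17 with an unadjusted p of 0.0322. The fourth by p, Pcdhb6, differed by −0.31 with an unadjusted limma p of 0.179. As list means relative to vehicle, 1% replicates 2 and 3 stood at −0.33 and −0.32 and replicate 1 at −0.04, beside 0.14, −0.04 and −0.10 in vehicle arrays, so the groups overlapped. These genes are near copies of each other, and cross-reading between their probe sets was not tested.

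Genes of the sensory axon input were scattered. Of 28 measured olfactory sensory neuron genes, 21 had a lower mean at 1%, the median was −0.16, and 1 had an unadjusted p under 0.05 (3.57%, near the 3.42% of all genes). That gene was Omp, the marker of mature sensory neurons, at 11.81, 10.91 and 9.91 in vehicle arrays and 9.99, 8.58 and 10.47 in 1% arrays. The groups overlapped, and 1% replicate 2 was far below the rest. Without that array the Omp difference was −0.65, and without vehicle replicate 1 it was −0.73. Stoml3, a membrane protein of sensory cilia, read 12.85, 11.53 and 11.67 against 11.48, 9.80 and 11.63, with an unadjusted limma p of 0.0615. Cnga4 and Ncam2 differed by −0.47 and −0.42, with p-values of 0.0703 and 0.0833. In whole tissue, less sensory axon material and less transcript per axon cannot be told apart.

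Olfactory ensheathing glia, which wrap the sensory axons, had lower means in 17 of 20 marker genes, with a median of −0.11 and 0 with an unadjusted p under 0.05. Fabp7 read 18.51, 18.25 and 16.61 in vehicle arrays against 16.89, 16.50 and 17.58, and Mybpc1 9.44, 9.53 and 8.29 against 8.11, 7.81 and 9.01. In both, vehicle replicate 3 lay within the exposed range. The list mean of vehicle replicate 3 was −0.34 relative to the vehicle mean, below all 1% arrays (−0.18, −0.29 and −0.08). Foxd3 and Frzb, with differences of −0.44 and −0.33, were likewise lowest in replicate 3 among the vehicle arrays.

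Neurons of the bulb itself differed little. Of 29 interneuron genes, 14 were higher and 15 lower, the median was −0.01 and 0 had an unadjusted p under 0.05. The largest differences, Sst at 1.10 and Calb1 at 0.63, came with a wide vehicle spread: Sst read 8.96, 9.70 and 13.18 against 10.44, 13.43 and 11.26, highest in the arrays of highest Tbr1. Mitral and tufted genes were 9 higher and 9 lower, and neuroblast genes 10 higher and 11 lower, each with 0 p-values under 0.05. Microglial genes were lower in 15 of 20 with a median of −0.09, and the smallest p was 0.052, for Fcrls.

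Secreted odorant-binding proteins and lipocalins, products of nasal glands and epithelium, had wide differences with poor agreement between the arrays of a group. Mup5, a major urinary protein that binds small volatiles, read 5.20, 4.45 and 5.73 in vehicle arrays and 8.59, 5.36 and 9.95 in 1% arrays. Obp1a read 5.72, 5.32 and 5.36 against 8.41, 5.35 and 10.41, with an unadjusted limma p of 0.0624. For these genes 1% replicate 2 thus lay at the vehicle level and replicates 1 and 3 far above it. The vehicle arrays also differed over the whole list, in which 15 genes were higher and 10 lower. Relative to the vehicle mean, the list mean was 0.64, −0.61 and −0.03 in vehicle arrays. It was 0.7, −0.34 and 1.5 in 1% arrays, so the groups overlapped. Without 1% replicate 3 the Mup5 difference of 2.84 was 1.85, with an unadjusted p above 0.05. Of 25 measured genes, 1 (4%) had an unadjusted p under 0.05, and Bpifb6 and Lcn4 were dim in every array.

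In 3 genes outside that list, named after their values were seen, 1% replicate 2 was likewise the lowest exposed array. Their vehicle arrays, like those of Mup5 and Obp1a, were dimmer than the negative controls, which leaves the sizes of these differences uncertain. The predicted gene 5430402E10Rik, with a log2 difference of 4.09 ± 1.30, read 4.79, 5.47 and 4.77 against 9.79, 6.48 and 11.03. Gm14744 read 5.97, 5.14 and 5.67 against 9.70, 6.28 and 11.39. Gdpd3, a lysophospholipase D, read 4.45, 4.46 and 4.49 against 7.18, 4.20 and 8.28, and its difference of 2.09 was 1.22 without 1% replicate 3. The 10% arrays of 5430402E10Rik read 5.08, 10.07 and 10.08, so the split within a group was not confined to 1%. The part of nasal tissue in these samples was not tested.

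Receptors for transmitters showed scattered differences. Of 44 GABA, glycine and glutamate receptor genes, 1 had a higher and 1 a lower mean with an unadjusted p under 0.05 (2.27% each). Glra4, a glycine receptor subunit, read 6.63, 6.96 and 5.46 in vehicle arrays and 5.16, 4.62 and 3.92 in 1% arrays, a difference of −1.78 ± 0.50 in a range at or below the negative controls. Grik3, a kainate receptor subunit, read 11.03, 11.41 and 10.89 against 11.38, 11.63 and 11.97 and overlapped. Gabrb2 and Grik5 differed by −0.57 and 0.39, with p-values of 0.0542 and 0.0547. Of 46 monoamine, muscarinic and adenosine receptor genes, 1 (2.17%) had an unadjusted p under 0.05. Adra2a, the α2A-adrenergic receptor that restrains noradrenaline release, read 7.63, 7.79 and 8.06 against 8.19, 8.71 and 8.52, without overlap. None of the 16 TRP channel genes, which include sensors of plant volatiles, had an unadjusted p under 0.05, and the smallest was 0.0955, for Trpv1.

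Genes that could handle an inhaled ester showed little. Of 56 esterase, cytochrome P450 and conjugation genes, an unadjusted p under 0.05 was found for 0 with a higher mean and 1 (1.79%) with a lower mean. That gene, Cyp1b1, a P450 of vessel-associated cells, read 7.51, 6.98 and 6.14 against 6.50, 5.87 and 6.17, with overlap through vehicle replicate 3. Its difference of −0.70 was −0.38 without vehicle replicate 1. Ces1c, a secreted carboxylesterase, differed by −0.46, and Aldh3a1, an aldehyde dehydrogenase, by 0.38, with unadjusted limma p-values of 0.0898 and 0.0585.

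Stress hormone targets went both ways. Of 24 glucocorticoid response genes, an unadjusted p under 0.05 was found for 2 higher and 2 lower means (8.33% each, against 1.76% and 1.67% of all genes), with a median of 0.02. Fkbp5, a chaperone that feeds back on the glucocorticoid receptor, read 11.65, 11.29 and 12.28 in vehicle arrays and 12.40, 12.28 and 12.65 in 1% arrays, touching at 12.28. Mt2, a metallothionein, read 16.41, 16.03 and 15.63 against 16.73, 16.35 and 16.77, with overlap. Plin4, a lipid droplet protein, differed by −0.39, and the fourth, Dusp1, is also an early activity gene. Of 34 heat shock and unfolded protein response genes, 1 (2.94%) had an unadjusted p under 0.05. It was Hsf1, the heat shock transcription factor, at 10.14, 10.64 and 10.49 against 10.65, 11.09 and 11.02.

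Vessel genes also split. Of 22 endothelial and mural genes, an unadjusted p under 0.05 was found for 2 higher means (9.09% against 1.76% of all genes) and 3 lower ones (13.6% against 1.67%). The higher genes were contractile proteins of smooth muscle: Acta2 read 7.68, 8.24 and 7.65 in vehicle arrays and 9.16, 8.93 and 8.07 in 1% arrays, and Myh11, dim throughout, differed by 0.40. The lower genes were the VEGF receptors Kdr (−0.83 ± 0.35) and Flt1 (−0.56 ± 0.25) and the pericyte receptor Pdgfrb (−0.36 ± 0.16). None of the higher or lower genes kept an unadjusted p under 0.05 whichever vehicle or 1% array was left out. Without 1% replicate 3 the Flt1 difference was −0.305, with an unadjusted limma p of 0.234. Without 1% replicate 1, Kdr, Pdgfrb, Acta2 and Myh11 differed by −0.63, −0.31, 0.64 and 0.31. Their unadjusted limma p-values there were 0.134, 0.129, 0.0535 and 0.14. Cldn5, the tight junction protein of brain endothelium, differed by −0.83 with an unadjusted limma p of 0.0774. Acta2 was not above vehicle in the 10% arrays, at 7.45, 7.96 and 7.71.

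Among immune genes, of 33 interferon-stimulated genes, an unadjusted p under 0.05 was found for 1 higher mean (Ifit3b, 0.40 ± 0.15) and 2 lower ones (Ifi35 and Ifi27), 9.09% in all against 3.42% of all genes. Of 32 genes that LPS induces, 0 had an unadjusted p under 0.05. The mean of this list relative to vehicle was −0.04, 0.00 and 0.04 in vehicle replicates 1, 2 and 3 and −0.01, −0.04 and −0.08 in 1% replicates, a narrow range. The descriptions name LPS for vehicle replicate 3 and for 1% replicates 1 and 2, and these 3 arrays spanned −0.04 to 0.04. Only 4 of the 32 genes reached the median signal of all genes.

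Lists of housekeeping machinery held shares of small p-values near or below the 3.42% of all genes. Respiratory chain genes numbered 43, with 20 higher, 22 lower and 0 with an unadjusted p under 0.05. Cytosolic ribosomal protein genes had a median of 0.08, with 46 higher and 22 lower, and 0 of 68 such p-values. Mitochondrial ribosomal protein genes had a median of 0.09, with 47 higher and 28 lower. Of these 75, 3 (4%) had such a p-value, Mrps10 and Mrpl43 lower and Mrpl35 higher. Cholesterol synthesis genes had 1 of 24 (4.17%), Mvk at −0.40, with 11 higher and 13 lower. In the order given, the groups did not overlap in 2.33%, 10.3%, 14.7% and 16.7% of genes, against 9.22% of all genes.

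Chemoreceptor families were mostly dim. Of 1095 odorant receptor genes, 29 higher and 19 lower means had an unadjusted p under 0.05 (2.65% and 1.74%), and none of these 48 reached the median signal of all genes. Of 305 vomeronasal receptor genes, 19 higher and 6 lower means had one (6.23% and 1.97%, against 1.76% and 1.67% of all genes), and 3 of these 25 reached that median. Among the 3, Vmn1r100 and Vmn1r148 had identical values in every array, so they carry 1 measurement.

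The early activity genes had the highest share of small p-values of the 33 lists. Of 47 measured, 40 had lower means at 1%, the median log2 difference was −0.50, and 19 (40.4% against 3.42% of all genes) had an unadjusted p under 0.05, all lower. The groups did not overlap for 7 of the 47 (14.9% against 9.22% of all genes), and for 5 of the 19. Vehicle replicate 3 lay with the exposed group here: the list mean was 0.28, 0.49 and −0.77 in vehicle arrays and −0.85, −0.48 and −1.03 in 1% arrays, counted from the mean of the vehicle group. Vehicle replicate 3 was the vehicle array nearest to the exposed group for 18 of the 19. Junb, a subunit of the AP-1 factor, read 10.14, 9.89 and 6.44 against 7.28, 7.69 and 7.18. Its difference was −1.44 with all arrays and −2.63 without vehicle replicate 3.

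The other genes are set beside the early genes with that array left out. Without vehicle replicate 3, 7 genes had an adjusted p under 0.05 (0.0328%), all 7 of them early genes, and 1165 an unadjusted p under 0.05 (5.45%). Of the 712 genes outside the early list with an unadjusted p under 0.05, all 712 kept their direction without it and 425 (59.7%) kept the p, against 18 of the 19 early genes (94.7%). These genes were chosen by their p with all arrays, so that they kept their direction is largely fixed by the choice. The median ratio of the difference without it to the difference with all arrays was 1.04, against 1.42 for the 19 early genes. The vehicle array nearest to the exposed group was replicate 1 for 208 of them, replicate 2 for 215 and replicate 3 for 289.

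Leaving out the highest-Tbr1 array of each group, which leaves 2 arrays in each, gave 11 genes with an adjusted p under 0.05 (0.0515%), 10 of them early genes and the other Gdpd3, whose low 1% array was the one left out. An unadjusted p under 0.05 was found for 1241 genes (5.81%). Of the 712 other genes, all kept their direction, 347 (48.7%) kept an unadjusted p under 0.05 and the median ratio was 1.02. Of the 19 early genes, 18 (94.7%) kept theirs and the median ratio was 1.62. With the mean of the cortex marker list as a covariate in limma, 0 genes had an adjusted p under 0.05, 850 an unadjusted one (3.98%), and 585 of the 712 kept theirs. Of the 19 early genes, 17 (89.5%) kept theirs. With the covariate, unlike the fits with arrays left out, the difference was smaller for 17 of the 19, with a median ratio of 0.92. For the 712 it was smaller in 398, with a median ratio of 0.99.

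Of the genes named for the smallest p, a fold over 2 or the widest gap between groups, Uspl1 had an unadjusted limma p of 0.0509 without the highest-Tbr1 arrays and also lost an unadjusted p under 0.05 without 1% replicate 3. The naming rule asked for groups without overlap and for a mean at the median of all genes in the higher group only, so nothing is read from how many of the others kept theirs. The lower group means of Hfe, Sla, Sly, Kcnmb2, Aven, Ifi35 and AW551984 lay below the negative control medians.

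**Figure D4:**
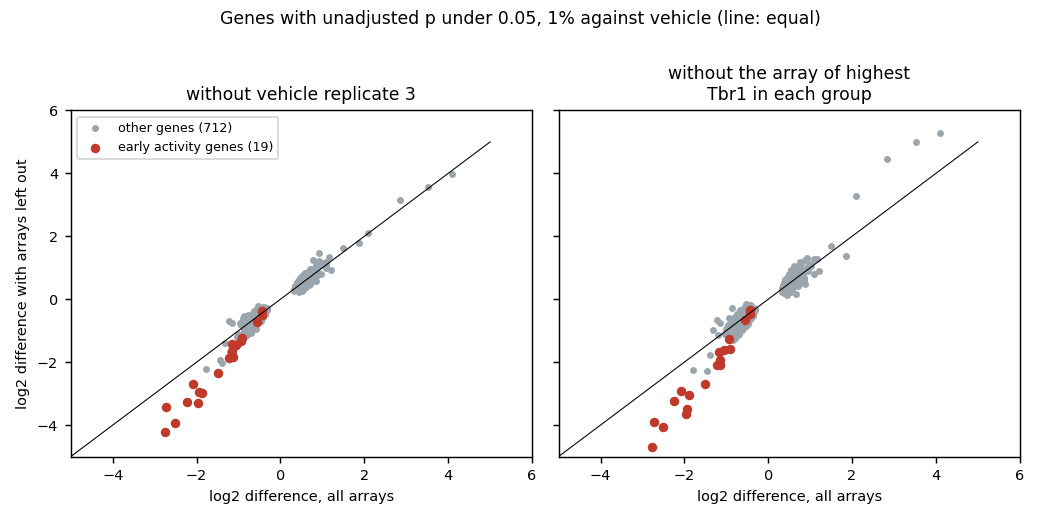
Log2 difference of the 731 genes with an unadjusted p under 0.05, with all arrays (x axis) and with arrays left out (y axis); the line marks equal values. Grey points (712 other genes) lie along the line, while 18 of the 19 red points (early activity genes) had larger differences with the arrays left out and 1, Fosl1, a smaller one. The grey points far above the line at the upper right of the right panel are 5430402E10Rik, Gm14744, Mup5 and Gdpd3.

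Vehicle replicate 3 also differed from its group in markers of neighbouring forebrain. The striatum list stood at −0.61, −0.53 and 1.14 in vehicle arrays relative to their mean and at −0.45, −0.20 and 0.34 in 1% arrays. Drd1, the D1 dopamine receptor, read 5.27, 6.0 and 8.45 against 5.36, 5.70 and 6.57. The cortex list mean was 8.77, 9.01 and 10.03 in vehicle arrays and 9.20, 10.00 and 9.30 in 1% arrays. Neither list had a gene with an unadjusted p under 0.05 between groups. The part of tissue composition in the differences above was not tested beyond the fits with these arrays left out and with the covariate.

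**Figure D5:**
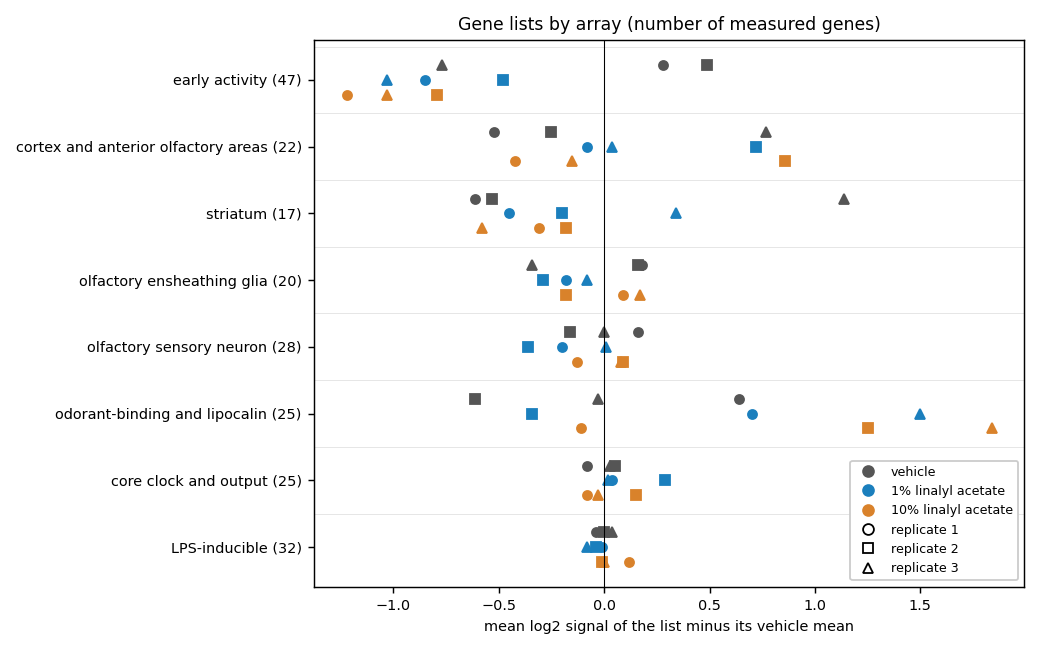
Mean log2 signal of 8 gene lists in each of the 9 arrays, relative to the mean of the vehicle arrays; numbers in brackets are measured genes. Vehicle replicate 3 (grey triangles) lies with the 1% arrays for early activity genes, far to the right for striatum genes and to the left of all 1% arrays for ensheathing glia.

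A comparison of 10% with either group reuses the arrays above, so the 10% values are given side by side only. Deaf1 read 9.12, 9.23 and 9.03 at 10%, next to its 1% level, and Trappc11 11.42, 11.17 and 10.97. Pcdhb10 read 7.75, 8.13 and 8.02 at 10%, nearer to vehicle. Paqr8 read 12.24, 12.23 and 12.57, with every 10% array below every 1% array. Hist1h4c read 10.77, 11.39 and 11.50, between the groups. Ciart read 8.32, 8.61 and 7.93 and Nr1d1 10.80, 10.96 and 10.73. A direct test of 10% against 1% gave 0 genes with an adjusted p under 0.05 (0%) in limma and 642 with an unadjusted p under 0.05 (3%).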

How the data were processed

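RNA from the bulbs was hybridised to arrays, and per the series text the authors normalized signals with SST-RMA in Transcriptome Analysis Console 4; the deposited table and series matrix give log2 values. The series text names a human array, but the deposited identifiers carry a mouse suffix. In the table, 27 cells of 1 array held calendar dates, which after decoding differed from the matrix by at most 0.00518. The authors' deposited comparison table holds log2 group averages, a score that is a signed fold change, and p-values from limma. Its averages differ from array means by up to 2.54, so none is used here for a gene, and only counts from that table are given. Probe sets with several symbols (836) or none (3) were left out.

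A limma 3.58.1 means model (R 4.3.3) on all 9 arrays, with 6 residual and 5.27 prior degrees of freedom, gave moderated contrasts and Benjamini-Hochberg adjustment over 21367 probe sets. The median SE of a difference was 0.21, and the number of arrays limits the precision. Fits were tested on simulated data. Named genes were, first, genes with an unadjusted p under 0.05, not predicted, not early, without overlap and with the higher group mean at or above the median of all genes: the 12 per direction with the smallest p, those with a fold over 2 and the 6 with the widest gap. Of the lists described, members with small p were named whatever their level or overlap. For some lists fewer than the 4 smallest p, or none, were named. Members and the 33 lists were chosen with earlier results of these data known. Alternatives numbered 21. Other members, among them Flt1, Cldn5, Hist1h3e, Hist1h2aa, Arntl and Per1, ranked below the 4 smallest p of their lists. Genes outside the lists that were picked after their values were seen are stated as such.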

Additional observations from a re-analysis of the deposited data

How the results depend on the processing

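Of the 112 single genes followed through the 21 alternatives, 0 changed sign. Most of them had been chosen for an unadjusted p under 0.05 with all arrays, which largely fixes that outcome. List medians, which were not tested, had the other sign in 61 of 693 values, in 22 of the 33 lists. The striatum median of −0.13 was 0.32 without vehicle replicate 3 and 0.36 without the highest-Tbr1 arrays, the glucocorticoid median of 0.02 was −0.06 without the highest-Tbr1 arrays, and the interneuron median of −0.01 was 0.08 with the covariate. The count of genes with an adjusted p under 0.05 was 0 with all arrays and 0 to 7 when 1 array was left out, with 7 only without vehicle replicate 3. It was 11 without the highest-Tbr1 array of each group. The unadjusted count of 731 was 566 to 1165 with 1 array left out, the highest without vehicle replicate 3. It was 1241 without the highest-Tbr1 arrays, 317 after a filter on low values, which tests fewer genes, and 1172 with array weights. The criterion count of 35 was 33 to 118 with 1 array left out, the highest again without vehicle replicate 3, and 138 without the highest-Tbr1 arrays. It was 22 after the filter, 21 with trended and robust moderation, 58 with array weights and 14 in a one-way model without moderation; the cause was not tested. Genes without overlap numbered 1971 to 5059 with 1 array left out and 7706 without the highest-Tbr1 arrays, since fewer arrays overlap less often. Same-numbered arrays did not deviate together in every pair, and no label states a pairing by number, so the samples were not paired. This check cannot show that no pairing exists. With the replicate number as a block, 0 genes had an adjusted p under 0.05 and 730 an unadjusted one. For single genes of the lists and the naming rule, 336 values over all alternatives lost an unadjusted p under 0.05, 13 gained one and 1979 stayed on their side.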

Other observations

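Hadha, Hadhb and Acot13 were picked after their values were seen, with lower means at 1%. No list of their pathway was counted, so they are given as single genes. Hadha, the α subunit of the mitochondrial trifunctional protein, read 11.47, 11.43 and 11.32 in vehicle arrays and 10.89, 10.83 and 11.07 in 1% arrays, without overlap and with an unadjusted p of 0.014. The β subunit gene Hadhb read 12.92, 12.49 and 12.28 against 12.08, 11.76 and 12.18. Acot13, an acyl-CoA thioesterase of mitochondria, read 12.03, 11.43 and 11.86 against 11.11, 10.97 and 11.08. At 10% Hadha read 11.35, 11.35 and 11.69. Without the highest-Tbr1 array of each group Hadha, Hadhb and Acot13 had unadjusted limma p-values of 0.0554, 0.0608 and 0.0651. Hadhb differed by −0.56 with all arrays and by −0.38 without vehicle replicate 1, there with an unadjusted limma p of 0.157. None of these genes passed the adjustment.

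Several bright genes of other roles, also chosen after their values were seen, kept an unadjusted p under 0.05 whichever of the 6 arrays was left out. Slc7a5, a transporter of large neutral amino acids, read 11.23, 11.57 and 11.79 against 12.09, 12.69 and 12.09. Zmiz1, a transcriptional coregulator, read 11.53, 11.58 and 11.90 against 12.19, 12.39 and 12.19. Dlgap2, a postsynaptic scaffold protein, read 11.16, 11.13 and 11.00 against 11.51, 11.52 and 11.57, and 11.56, 11.53 and 11.40 at 10%. Without the highest-Tbr1 array of each group Dlgap2 differed by 0.395, with an unadjusted limma p of 0.0755. The other genes of this paragraph kept an unadjusted p under 0.05 there. Mgp, matrix Gla protein of vessels and meninges, differed by 0.60 ± 0.19. Cd59a, an inhibitor of complement, read 9.09, 9.56 and 9.79 against 8.19, 8.95 and 8.49. Sdcbp, the scaffold protein syntenin, read 14.29, 14.37 and 14.27 against 13.62, 13.97 and 13.61, the narrowest vehicle spread of these genes.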
